A study of Mus musculus with 72 samples.

Results

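The comparison described here was gastrin-releasing peptide (GRP) against mock in the mouse melanoma line 1057, across all genes. Its members were 6 of the 72 RNA-seq libraries of the series, 3 mock and 3 GRP, chosen by their line and treatment labels. Of 50600 genes in the count table, 14195 carried enough reads in the 12 libraries of line 1057 to be tested. The study exposed 6 melanoma lines, with and without the GRP receptor, to GRP, to the receptor antagonist RC and to both, 3 libraries for each line and treatment, and counted reads per gene. Line 1057 came from a melanoma of a female mouse with the genotype Tyr::NRASQ61K/°; Cdkn2a-/-;Tyr::CreA/°;Cdh1dF/dF. All 6 libraries share those alleles: a mutant NRAS and the Cre recombinase under the promoter of tyrosinase, which is active in melanocytes, loss of Cdkn2a, and a floxed and deleted Cdh1, the E-cadherin gene. Cells of both groups were starved for 18 h in 0.5% foetal calf serum and then kept for 4 h with 10 nM GRP or with 0.1% DMSO as mock. A single line was studied, so the libraries are replicates of that line and not of mice. The study describes its culture experiments in general as done with biological replicates, but the labels do not say whether the 3 libraries of a group came from separate cultures, and p-values measure the spread between these libraries. The cultures were measured in bulk, so fewer cells that express a gene and less RNA per cell cannot be told apart.

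GRP is a neuropeptide of the bombesin family, and its receptor GRPR is a membrane receptor that couples mainly to Gq proteins. Gq activates phospholipase C, which releases calcium from the endoplasmic reticulum and makes diacylglycerol, an activator of protein kinase C. Both branches feed the MAP kinase cascade and the transcription factors CREB, SRF and AP-1, whose first target genes encode further transcription factors, secreted ligands and inhibitors that act back on the pathway.

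The receptor gene Grpr (ENSMUSG00000031364, chromosome X, 163513904 to 163549677) was read at 243, 247 and 246 CPM in mock and 187, 179 and 191 CPM with GRP (CPM, reads scaled to a common library size with TMM factors). Every GRP library lay below every mock library, but the fall was under the 2-fold required for a call (log2 fold change -0.40, SE 0.04, adjusted p = 3.77e-08, from the quasi-likelihood F test of edgeR, adjusted after Benjamini and Hochberg over all genes tested). Scaled over all 72 libraries, Grpr stood at 273 to 276 CPM in mock, 196 to 209 with GRP and 208 to 212 with RC alone. A fall of similar size was thus read with the antagonist alone, and its cause was not tested. Cdh1, the deleted gene, had between 0 and 2 reads per library, and Grp itself had 0 or 1. All 7 melanocyte markers were detected, with summed levels of 7816 to 8441 CPM in mock and 8219 to 8442 CPM with GRP. Of the fibroblast markers, 4 of 5 had at most 3 reads in every library, among them Col1a1 and Dcn, and so had 3 of 4 leukocyte markers, Ptprc included, and 2 of 3 keratinocyte markers. The summed fibroblast markers were 3.5 to 4.25 CPM in mock and 5.13 to 5.85 CPM with GRP, the leukocyte markers 1.17 to 1.61 and 5.25 to 5.90 CPM, and the endothelial markers 4.07 to 4.71 and 5.96 to 6.30 CPM. The rise of the leukocyte sum came from Cd68, a lysosomal protein, and the endothelial sum was mostly Cdh5; the part of such cells in the results below was not tested. Totals ran from 32622311 to 38253035 reads per library, so that 3 reads correspond to at most 0.092 CPM, and such values cover counting error only, since the reads carried no molecular identifiers.

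GRP raised 704 genes and lowered 213 by more than 2-fold at an adjusted p under 0.05, which is 4.96% and 1.5% of the genes tested. At the adjusted p alone, 3643 genes (25.7%) were higher and 3819 (26.9%) lower, while the median log2 fold change over all tested genes was -0.01. Large changes were increases. Of the genes called higher, 488 rose by 1 to 2 on the log2 scale, 127 by 2 to 3, 43 by 3 to 4 and 46 by more than 4. Of those called lower, 202 fell by 1 to 2, 11 by 2 to 3, and 0 by more. The 3 mock and the 3 GRP values did not overlap for 899 of the 917 called genes, against 57.7% of all tested genes. Where a lack of overlap is given for called genes below, it comes from the same values as the call and is no further support. The first principal component, which held 75.1% of the variance among the 6 libraries, separated the mock from the GRP libraries.

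**Figure D1:**
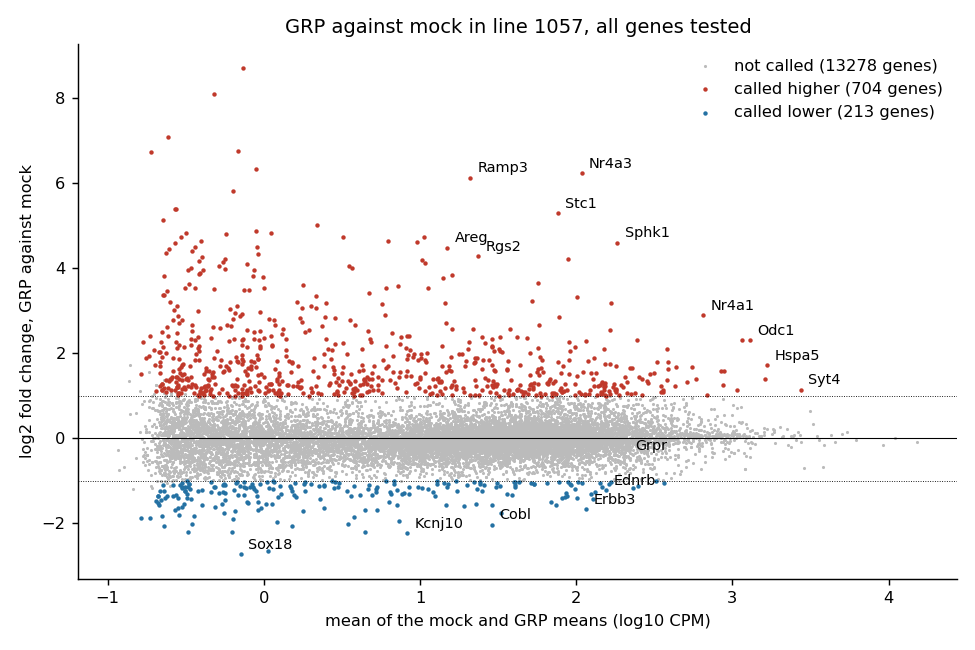
Each point is a tested gene in line 1057, with the mean of its mock and GRP levels (log10 of CPM) on the horizontal axis and the log2 fold change of GRP over mock on the vertical axis. Red and blue points are the 704 genes called higher and the 213 called lower, and the cloud of called genes reaches further above 0 than below it.

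Called genes of both directions had lower median levels in mock than all tested protein-coding genes. Among the protein-coding genes, 592 of 12171 were called higher and their median level went from 2.40 CPM in mock to 7.87 CPM with GRP, whereas the median of all tested protein-coding genes was 29.6 CPM in mock. The 163 protein-coding genes called lower went from a median of 7.08 CPM to 2.82 CPM. Of 358 long intergenic non-coding RNAs tested, 29 were called higher and 10 lower. In 43 of the 704 genes called higher no mock library held more than 3 reads, and for these a lower bound on the fold, set against 3 reads per library, is given for their change in 1057 in place of a fitted value. A gene silent in mock was tested only where another treatment of line 1057 raised its reads, so it could be called higher but not lower. Silent genes that did not answer are missing from the shares of the lists below, which raises the share called higher in lists with many such genes. Exons of 16 of the 285 named genes lay by 20% or more under another gene, and the strand setting of the counting was not given in the sources used here, so that reads of the 2 genes may be mixed for Fosl1, Cebpb, Lats2, Dusp5, Zfp36l1, Pdgfa, Ccn2, Hyal1, Vcl, Kcnmb4, Ccnd1, Adgre5, Hvcn1, C2cd4b, Samd11 and 1700016P03Rik.

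Among called genes, those with the largest gains in CPM included an enzyme, a chaperone and a protease. Odc1, the rate-limiting enzyme of polyamine synthesis (ENSMUSG00000011179, chromosome 12, 17544794 to 17551505), stood at 478, 419.6 and 419 CPM in mock and 2177, 2136 and 2199 CPM with GRP (log2 fold change 2.31, SE 0.04, adjusted p = 1.54e-17). Hspa5, the chaperone BiP of the endoplasmic reticulum (ENSMUSG00000026864, chromosome 2, 34771970 to 34777547), stood at 793, 750.5 and 794 CPM in mock and 2515, 2569 and 2598 CPM with GRP (log2 fold change 1.72, SE 0.04, adjusted p = 3.55e-17). Plat, which encodes tissue plasminogen activator (ENSMUSG00000031538, chromosome 8, 22757727 to 22782844), stood at 411, 377 and 372 CPM in mock and 1895, 1924 and 1934 CPM with GRP (log2 fold change 2.31, SE 0.04, adjusted p = 2.01e-18). In all of them the GRP libraries lay close together and far above the mock libraries. Syt4, a synaptotagmin of secretory vesicles, rose from 1714 ± 75.2 to 3781 ± 18.3 CPM (SD, n = 3 in each group, here and below; log2 fold change 1.14). Nes, which encodes the intermediate filament protein nestin, rose from 424 ± 10.6 to 1269 ± 66.1 CPM (1.58), and Adamts1, a secreted metalloproteinase, from 444 ± 6.47 to 1326 ± 18.4 CPM (1.58).

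The NR4A orphan nuclear receptors, transcription factors that need no ligand and are induced within hours of many stimuli, all rose. Nr4a1 (ENSMUSG00000023034, chromosome 15, 101254269 to 101274795) was read at 163, 154 and 145 CPM in mock and 1156, 1155 and 1125 CPM with GRP (log2 fold change 2.89, SE 0.04, adjusted p = 1.47e-19). Nr4a2 was read at 10.6, 9.10 and 10.6 CPM in mock and 94.1, 96.6 and 93.4 CPM with GRP (log2 fold change 3.23, adjusted p = 1.21e-18). Nr4a3 had 3.17, 3.14 and 2.23 CPM in mock and 203, 233 and 207 CPM with GRP, a 75.3-fold rise with an adjusted p of 1.67e-18. The GRP values of all 3 genes lay above all mock values, and the 3 GRP libraries differed little from each other. Their median log2 fold change was 3.23, against -0.01 over all tested genes.

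AP-1 factors, dimers of FOS and JUN proteins that bind the sequence TGANTCA, included several FOS members that rose. For the family, 6 of 12 tested members rose and 0 fell (median log2 fold change 0.90). Fosl2 rose from 47.7 ± 2.06 to 281 ± 12.3 CPM (log2 fold change 2.56) and Fos from 6.33 ± 0.0944 to 37.6 ± 0.498 CPM (2.57). Fosb rose from 1.03 ± 0.382 to 6.61 ± 0.567 CPM (2.68) and Fosl1, which encodes FRA1 and lies by 57.2% of its exon bases under another gene, from 0.413 ± 0.0756 to 3.58 ± 0.281 CPM (3.11). All 4 differences were many times the SD within a group. Atf3, the member with the most reads among those not called, stood at 69.3 ± 1.92 CPM in mock and 78.2 ± 3.03 CPM with GRP (log2 fold change 0.17, SE 0.04, adjusted p = 8.12e-04). Of the EGR zinc-finger factors and their NAB corepressors, 2 of 6 tested members rose and 0 fell (median log2 fold change 0.78). Egr3 was read at 10.7, 12.4 and 11.4 CPM in mock and 45.1, 49.7 and 49.4 CPM with GRP (log2 fold change 2.07) and Egr4 at 0.355, 0.305 and 0.468 CPM in mock and 2.51, 4.16 and 2.77 CPM with GRP (3.06), both without overlap.

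Some factors that answer cyclic AMP and calcium rose as well. Crem, which encodes both activators and the early repressor ICER of cyclic AMP response elements, stood at 114, 96.5 and 109 CPM in mock and 327, 344 and 340.1 CPM with GRP (log2 fold change 1.66, SE 0.05, adjusted p = 3.65e-15). For ATF and CREB factors together, 3 of 18 tested members rose and 0 fell (median log2 fold change 0.19). The other members called were Atf5, an ATF4-related factor, at 32.1 ± 2.13 CPM in mock and 66.1 ± 7.04 CPM with GRP (1.04, not called without GRP replicate 2), and Creb3l4 at 0.174 ± 0.0829 CPM in mock and 0.472 ± 0.0595 CPM with GRP (1.42). Sik1, a salt-inducible kinase that restrains the coactivators of CREB, rose from 8.05 ± 0.276 to 42.1 ± 2.69 CPM (log2 fold change 2.39). Among basic leucine zipper factors of the CEBP and MAF families, 3 of 13 tested members rose and 0 fell (median log2 fold change 0.28, with 17 listed). Nfil3, a repressor that competes at sites of circadian PAR factors, was read at 16.7, 14.9 and 15.4 CPM in mock and 82.1, 81.8 and 77.9 CPM with GRP (log2 fold change 2.36). Cebpb rose from 1.60 ± 0.148 to 6.85 ± 0.711 CPM (2.10), and Mafk, a small MAF, from 31.9 ± 2.46 to 73.4 ± 1.82 CPM (1.20). Of the circadian factors, Per1 rose by 1.25 and Arntl, which encodes BMAL1, by 1.31 on the log2 scale.

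**Figure D2:**
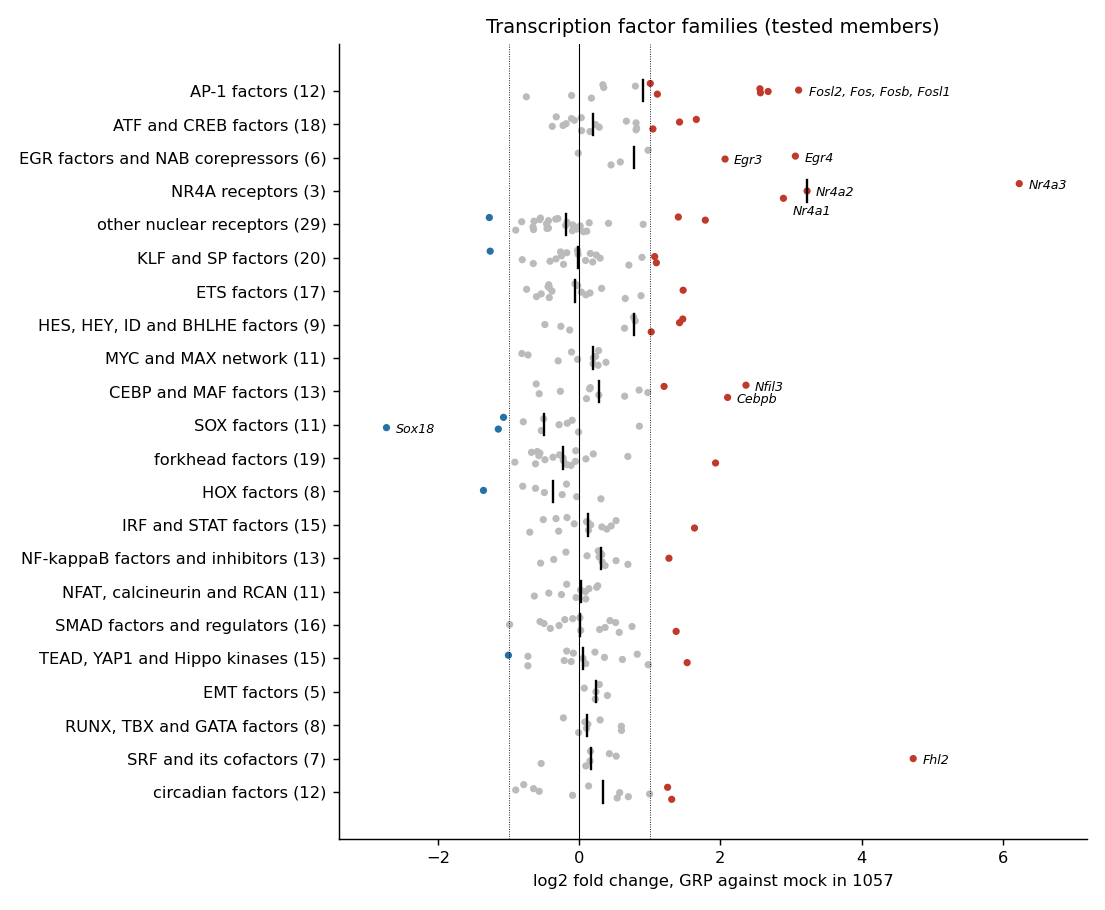
Each point is a tested gene of a transcription factor family, placed by its log2 fold change of GRP over mock in line 1057; rows are families with the number tested, red points are called higher, blue points lower and grey points neither, and the black bar is the median. The fitted value of Fhl2, which had few reads in mock, depends on the prior count. The NR4A row holds 3 called genes and the AP-1 row 6, while the SOX row is the only one with 3 genes called lower.

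Of 22 transcription factor families listed, 16 had at least 1 gene called higher and 5 at least 1 called lower. These counts were not corrected for family size. Over all tested genes 4.96% were called higher and 1.5% lower. Among the inhibitors and repressors of the ID and HES type, 3 of 9 tested members rose and 0 fell (median log2 fold change 0.77, with 14 listed): Id3 rose from 4.67 ± 0.403 to 12.9 ± 1.78 CPM (log2 fold change 1.47), Id1 from 1.63 ± 0.536 to 4.32 ± 1.39 CPM (1.42) and Bhlhe40 from 74.8 ± 5.48 to 152 ± 2.46 CPM (1.02, not called without mock replicate 2). In other families 1 or 2 members rose. They included Rorb, an orphan receptor of the ROR group, from 34.5 ± 0.928 to 119 ± 4.20 CPM (1.79), Ets2 from 53.3 ± 1.90 to 148 ± 5.84 CPM (1.47), Klf6 from 44.9 ± 3.25 to 94.3 ± 3.70 CPM (1.07) and Foxd3, a factor of neural crest cells, from 2.80 ± 0.810 to 10.6 ± 2.42 CPM (1.93). Vdr, the vitamin D receptor, rose by 1.41 and Nfkbiz, a nuclear regulator of NF-kappaB, by 1.27 on the log2 scale. In the NFAT and calcineurin list 0 of 11 tested members rose and 0 fell (median log2 fold change 0.02, with 12 listed), and in the MYC and MAX list 0 of 11 tested members rose and 0 fell (median log2 fold change 0.20, with 13 listed). Myc itself stood at 202 ± 7.57 CPM in mock and 245 ± 4.47 CPM with GRP (log2 fold change 0.28, adjusted p = 5.57e-07), and Nfat5 at 165 ± 23.9 CPM in mock and 176 ± 17 CPM with GRP (0.10, adjusted p = 0.583).

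SOX factors moved the other way: 0 of 11 tested members rose and 3 fell (median log2 fold change -0.50, with 18 listed). Sox18, best known from endothelial cells, had 1.17, 1.33 and 1.21 CPM in mock and 0.251, 0.134 and 0.175 CPM with GRP (log2 fold change -2.73, adjusted p = 1.39e-06). Sox9 stood at 16.5, 18.6 and 17.5 CPM in mock and 8.12, 7.97 and 8.92 CPM with GRP (-1.07) and Sox13 at 11.1, 12.4 and 11.8 CPM in mock and 5.02, 5.88 and 5.04 CPM with GRP (-1.15). Mock and GRP values did not overlap in any of the 3 genes, as in 899 of all 917 called genes. Sox10, the factor that maintains the melanocyte lineage, had the most reads of the family and stood at 696 ± 27.4 CPM in mock and 692 ± 26.9 CPM with GRP (log2 fold change -0.01, SE 0.03, adjusted p = 0.835). Other regulators called lower were Mecom, a zinc-finger factor also called EVI1, from 7.29 ± 0.883 to 1.58 ± 0.164 CPM (-2.21), En2, a homeobox factor, from 6.78 ± 0.872 to 2.11 ± 0.149 CPM (-1.69), Sp5, a target of WNT signalling, from 17.2 ± 3.31 to 7.13 ± 1.07 CPM (-1.26), and Thrb, a thyroid hormone receptor, from 0.799 ± 0.0339 to 0.328 ± 0.0585 CPM (-1.27). Taf4b, a subunit of the general factor TFIID, fell from 221 ± 6.04 to 105 ± 1.65 CPM (-1.07).

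Several inhibitors that act below the receptor rose. Rgs2, a GTPase-activating protein that shortens the active state of Gq (ENSMUSG00000026360, chromosome 1, 143999338 to 144004161), had 2.32, 2.19 and 2.40 CPM in mock and 43.3, 47.4 and 44.1 CPM with GRP (log2 fold change 4.29, SE 0.08, adjusted p = 2.38e-17). In the RGS list 4 of 12 tested members rose and 0 fell (median log2 fold change 0.69, with 19 listed), and Rgs16 rose by 1.65, Rgs17 by 1.45 and Rgs4 by 1.10 on the log2 scale. The call of Rgs4 (adjusted p = 0.0322 with edgeR) was lost with DESeq2, without a filter on low counts and without any 1 of 5 libraries, all but mock replicate 2. Among DUSP phosphatases, which inactivate MAP kinases, 5 of 11 tested members rose and 0 fell (median log2 fold change 0.79). Dusp5, which acts on ERK in the nucleus, was read at 39.9, 38 and 39.3 CPM in mock and 126, 129 and 124 CPM with GRP (log2 fold change 1.70). Dusp8 rose from 4.05 ± 0.221 to 16.1 ± 0.374 CPM (1.99), while Dusp4, the member with the most reads, stood at 961 ± 23.5 CPM in mock and 778 ± 19.49 CPM with GRP (-0.31, adjusted p = 1.57e-07) and was not called. Spry2, an inhibitor of receptor tyrosine kinase signalling, rose from 94.4 ± 2.62 to 197 ± 3.52 CPM (1.06), and Spry4 stood at 1183 ± 16.5 CPM in mock and 983 ± 51.6 CPM with GRP (-0.27).

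Genes of the Gq pathway itself were called higher at about the share of all tested genes. Among Gq proteins, phospholipases and diacylglycerol kinases, 1 of 18 tested members rose and 0 fell (median log2 fold change 0.01, with 23 listed), which is 5.56% higher against 4.96%. The gene called was Dgkh, a kinase that removes diacylglycerol, at 2.92 ± 0.498 CPM in mock and 6.20 ± 0.632 CPM with GRP (log2 fold change 1.08), and it lost the call without mock replicate 1. In the list of protein kinase C and RASGRP genes, 0 of 11 tested members rose and 1 fell (median log2 fold change -0.04, with 16 listed). Prkcq, which encodes the theta isoform of protein kinase C, had 11.8, 12.2 and 12.5 CPM in mock and 4.67, 5.18 and 4.93 CPM with GRP (-1.30), with no overlap. On the cyclic AMP side, Prkar1a, the main regulatory subunit of protein kinase A, was read at 702, 650.2 and 649.7 CPM in mock and 1476, 1494 and 1467 CPM with GRP (log2 fold change 1.15, SE 0.03, adjusted p = 2.31e-15). Prkar1b rose from 0.156 ± 0.0559 to 1.01 ± 0.175 CPM (2.67), and Pde1c, a calcium-activated phosphodiesterase, fell from 0.322 ± 0.0718 to 0.135 ± 0.0102 CPM (-1.23), a call lost with DESeq2 and without mock replicate 2. Sphk1, which makes sphingosine 1-phosphate, rose from 14.5 ± 1.16 to 352 ± 8.98 CPM (4.60).

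Several secreted ligands were among the genes with the largest increases. Inhba, the beta A subunit of activin and inhibin (ENSMUSG00000041324, chromosome 13, 16011851 to 16031621), had 0, 0 and 0 CPM in mock and 1.47, 1.48 and 1.49 CPM with GRP, at least 17.5-fold higher when 3 reads are allowed in each mock library (adjusted p = 3.59e-09). Stc1, the glycoprotein hormone stanniocalcin (ENSMUSG00000014813, chromosome 14, 69029238 to 69041804), had 4.23, 3.69 and 3.33 CPM in mock and 151, 139.9 and 154 CPM with GRP (log2 fold change 5.30, SE 0.07, adjusted p = 1.00e-19). Areg, which encodes the EGF receptor ligand amphiregulin (ENSMUSG00000029378, chromosome 5, 91139599 to 91148432), had 1.20, 1.44 and 1.18 CPM in mock and 26.8, 29.2 and 29.6 CPM with GRP (log2 fold change 4.48, SE 0.10, adjusted p = 2.27e-16). Each of them was at or near the detection limit or at a low level in the 3 mock libraries and clearly read in the 3 GRP libraries. Vgf, a precursor of secreted neuropeptides, had 0, 0.166 and 0.0551 CPM in mock and 1.69, 2.68 and 2.10 CPM with GRP (log2 fold change 4.82). Tnfsf11, the ligand RANKL, had 0.137, 0.0555 and 0.0276 CPM in mock and 1.76, 1.82 and 1.63 CPM with GRP (4.50).

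**Figure D3:**
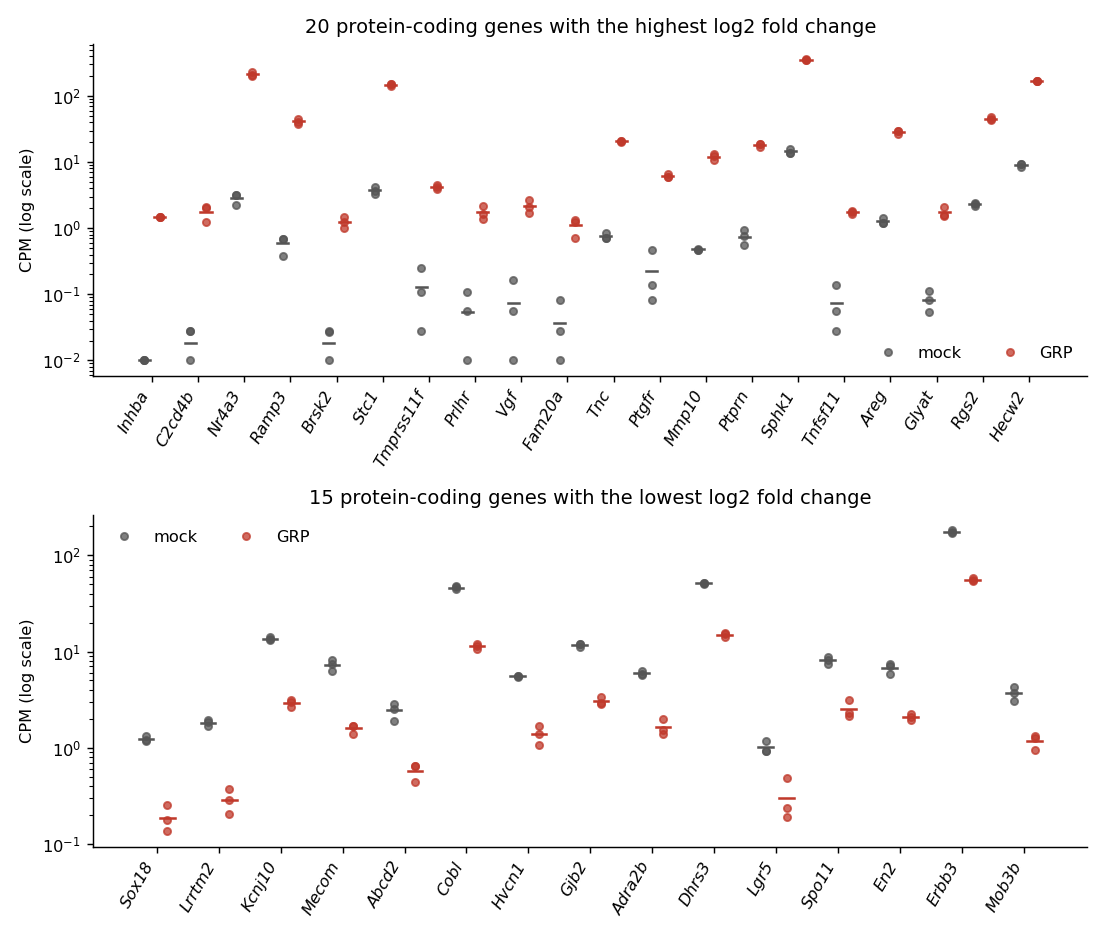
For the 20 protein-coding genes with the highest and the 15 with the lowest log2 fold change among those with at least 1 CPM in the higher group, each point is a library of line 1057, grey for mock and red for GRP, on a log axis in CPM; bars are group means and a value of 0 is drawn at 0.01 CPM. The mock and GRP points of each gene lie apart, and the lowest mock values, at or near 0, belong to genes that rose.

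Ligands of growth factor receptors were called higher in shares above the 4.96% of all tested genes. For EGF-family ligands, 3 of 6 tested members rose and 0 fell (median log2 fold change 0.71, with 11 listed): beside Areg these were Btc, betacellulin, from 1.14 ± 0.101 to 3.73 ± 0.315 CPM (log2 fold change 1.71), and Hbegf from 14.1 ± 0.640 to 37.7 ± 0.683 CPM (1.42). For FGF, VEGF, PDGF and HGF ligands, 4 of 11 tested members rose and 0 fell (median log2 fold change 0.75, with 27 listed). Pgf, the placental growth factor, had 2.35, 1.91 and 2.01 CPM in mock and 27.1, 30.2 and 32.2 CPM with GRP (3.83). Kitl, the ligand of the receptor KIT, rose from 5.0 ± 0.189 to 22.7 ± 0.152 CPM (2.18), Pdgfa from 9.94 ± 0.272 to 36.7 ± 1.93 CPM (1.88) and Angpt2, angiopoietin 2, from 0.679 ± 0.160 to 2.36 ± 0.179 CPM (1.79). Vegfa, at 104 ± 1.38 CPM in mock and 175 ± 10.6 CPM with GRP (0.75, adjusted p = 1.18e-11), did not reach a 2-fold change. Among neurotrophins and neuropeptides, 5 of 12 tested members rose and 0 fell (median log2 fold change 0.49, with 32 listed), with Nppb, the B-type natriuretic peptide, at 1.12, 1.08 and 1.16 CPM in mock and 12.3, 13.4 and 14.5 CPM with GRP (3.58) and Bdnf from 0.120 ± 0.0578 to 1.38 ± 0.163 CPM (3.49).

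Several cytokines rose from few reads. In the list of the IL-6 family and other interleukins, 6 of 13 tested members rose and 0 fell (median log2 fold change 0.06, with 26 listed). Of the 13, 2 had at most 3 reads in every library of mock or of GRP, and listed members silent in all treatments were not counted. Il6 had 0.0546, 0 and 0.0276 CPM in mock and 0.502, 0.778 and 1.02 CPM with GRP, at least 9.07-fold higher, and Il1rn, the antagonist of the IL-1 receptor, had 0.0546, 0.0277 and 0.0276 CPM in mock and 0.721, 0.885 and 0.700 CPM with GRP, at least 9.09-fold higher. Il11 had 0.0819, 0.0832 and 0.138 CPM in mock and 1.47, 1.82 and 1.57 CPM with GRP (log2 fold change 3.97), and Clcf1, another ligand of the IL-6 group, rose from 0.999 ± 0.265 to 4.71 ± 0.238 CPM (2.23). These levels stayed low in the GRP libraries too, and for all 4 the groups did not overlap. Among chemokines, 3 of 9 tested members rose and 1 fell (median log2 fold change 0.01, with 37 listed). Ccl3 was at least 6.32-fold higher, Ccl2 rose from 0.376 ± 0.0186 to 2.26 ± 0.295 CPM (2.57), Cx3cl1 rose from 7.87 ± 0.561 to 23.6 ± 1.55 CPM (1.58), and Cxcl12, the ligand of CXCR4, fell from 0.854 ± 0.174 to 0.250 ± 0.0667 CPM (-1.75). Of TGF-beta and BMP ligands other than Inhba, Bmp2 rose from 1.53 ± 0.102 to 3.76 ± 0.333 CPM (1.29).

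In the WNT list, 5 of 21 tested members rose and 2 fell (median log2 fold change -0.17, with 33 listed). Wnt1 was at least 5.23-fold higher, and Wnt11 (1.58) and the secreted WNT modulator Dkk2 (1.54) rose on the log2 scale. The members that fell were Lgr5, a receptor of R-spondins, from 1.01 ± 0.152 to 0.301 ± 0.159 CPM (-1.70), and Sp5, given above. Among Notch ligands and receptors, Jag2 rose from 2.58 ± 0.533 to 6.85 ± 0.712 CPM (1.41) and Dlk2 from 0.487 ± 0.116 to 1.06 ± 0.163 CPM (1.12, not called without mock replicate 3). Among ephrins and semaphorins, which guide cell and axon movement, 3 of 34 tested members rose and 1 fell (median log2 fold change -0.12, with 39 listed). These are 8.82% and 2.94%, against 4.96% and 1.5% of all tested genes. Sema3e rose by 1.89, Efnb2 by 1.37 and the receptor Plxna2 by 1.22 on the log2 scale, whereas Sema3a fell by 1.22.

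Receptors changed in both directions. Prlhr, the receptor of prolactin-releasing peptide, had 0.109, 0 and 0.0551 CPM in mock and 2.16, 1.37 and 1.66 CPM with GRP (log2 fold change 4.88). Ramp3, a partner protein that sets the ligand choice of calcitonin-family receptors, had 0.683, 0.694 and 0.386 CPM in mock and 37.7, 45.2 and 41 CPM with GRP (6.13). Tnfrsf12a, the TWEAK receptor FN14, was read at 19.6, 18.6 and 18.6 CPM in mock and 128, 139 and 142 CPM with GRP (log2 fold change 2.85, SE 0.06, adjusted p = 2.38e-17). All 3 rose without overlap between the groups. In the prostaglandin list, 5 of 12 tested members rose and 0 fell (median log2 fold change 0.21, with 19 listed): Ptgfr, the receptor of prostaglandin F, had 0.464, 0.139 and 0.0827 CPM in mock and 6.71, 6.01 and 5.86 CPM with GRP (4.73), Ptger3 rose from 2.70 ± 0.205 to 14.4 ± 0.717 CPM (2.41), and Ptgs2, the inducible cyclooxygenase, rose from 0.0551 ± 0.0477 to 0.673 ± 0.0680 CPM (3.54). Of the cytokine receptors, Lifr rose from 5.53 ± 0.158 to 13.7 ± 0.998 CPM (1.31) and Tnfrsf23 from 17.2 ± 0.751 to 40.8 ± 1.16 CPM (1.25).

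Among receptor tyrosine kinases, 1 of 26 tested members rose and 1 fell (median log2 fold change -0.10, with 45 listed). These are 3.85% of the list each way, against 4.96% higher and 1.5% lower over all tested genes. Erbb3, the neuregulin receptor that pairs with ERBB2, was among the 10 called genes with the largest falls in CPM and stood at 183, 175 and 173 CPM in mock and 58.2, 53.8 and 54.9 CPM with GRP (log2 fold change -1.67, SE 0.04, adjusted p = 6.64e-16). Epha7 rose from 0.404 ± 0.142 to 1.15 ± 0.208 CPM (log2 fold change 1.49), and Kit, the member with the most reads, stood at 594 ± 5.94 CPM in mock and 411 ± 2.58 CPM with GRP (-0.53, adjusted p = 1.84e-11). Ednrb, the endothelin B receptor of melanocytes, fell from 217 ± 4.18 to 93.5 ± 1.75 CPM (-1.21, adjusted p = 1.18e-15), and Adra2b, an alpha-2 adrenergic receptor, from 5.94 ± 0.330 to 1.64 ± 0.307 CPM (-1.84).

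Proteolysis of the extracellular space was another group with many genes called. In the plasminogen activator list, 8 of 13 tested members rose and 0 fell (median log2 fold change 2.29, with 18 listed). Beside Plat, Serpine2, which encodes protease nexin 1, was read at 9.28, 9.85 and 9.42 CPM in mock and 47.3, 46.2 and 50.3 CPM with GRP (log2 fold change 2.33, SE 0.06, adjusted p = 1.72e-15). Serpinb2, the plasminogen activator inhibitor PAI-2 (ENSMUSG00000062345, chromosome 1, 107511423 to 107535478), was read at 0.601, 0.499 and 0.276 CPM in mock and 3.73, 3.62 and 4.29 CPM with GRP (log2 fold change 3.07), and Plaur, the urokinase receptor, rose by 4.13 on the log2 scale. Activators and inhibitors of the same system rose side by side. Serpinf1 stood at 752 ± 9.11 CPM in mock and 702 ± 6.99 CPM with GRP (-0.10) and was not called. In the list of metalloproteinases and their TIMP inhibitors, 9 of 43 tested members rose and 1 fell (median log2 fold change -0.04, with 83 listed). Mmp10, stromelysin 2 (ENSMUSG00000047562, chromosome 9, 7502352 to 7510240), had 0.492, 0.472 and 0.468 CPM in mock and 13.1, 10.6 and 12.4 CPM with GRP (log2 fold change 4.64, SE 0.17, adjusted p = 1.22e-13). Mmp3 rose from 0.321 ± 0.101 to 2.05 ± 0.270 CPM (2.66), Mmp13 from 0.0916 ± 0.0414 to 0.382 ± 0.107 CPM (2.0) and the inhibitor Timp1 from 3.80 ± 0.757 to 14.3 ± 0.604 CPM (1.91). Mmp14, a membrane-bound member, stood at 451 ± 10.1 CPM in mock and 437 ± 12.6 CPM with GRP (-0.05, adjusted p = 0.202).

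Promoters of 4 of these genes are shown as examples of windows that hold an AP-1 motif or a full cyclic AMP response element. They are the 250 bases before the RefSeq start (GRCm38.p6), 5′ to 3′ on the gene's strand, with capitals marking TGANTCA in the first 3, TGACGTCA, the full cyclic AMP response element, in Areg, and TATAAA, a core promoter element, where present. The windows are chr9:7502092-7502341, plus strand for Mmp10, chr1:107511173-107511422, plus strand for Serpinb2, chr7:24462233-24462482, plus strand for Plaur and chr5:91139349-91139598, plus strand for Areg.
Mmp10: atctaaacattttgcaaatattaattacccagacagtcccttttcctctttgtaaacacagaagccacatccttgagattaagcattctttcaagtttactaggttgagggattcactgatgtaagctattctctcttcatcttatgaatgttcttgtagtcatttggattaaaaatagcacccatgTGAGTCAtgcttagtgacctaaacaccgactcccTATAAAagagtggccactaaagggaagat
Serpinb2: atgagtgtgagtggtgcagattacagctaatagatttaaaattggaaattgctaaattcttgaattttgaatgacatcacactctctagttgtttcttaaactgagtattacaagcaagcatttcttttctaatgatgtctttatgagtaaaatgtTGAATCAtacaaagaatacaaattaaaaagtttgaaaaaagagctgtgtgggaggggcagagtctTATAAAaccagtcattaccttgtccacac
Plaur: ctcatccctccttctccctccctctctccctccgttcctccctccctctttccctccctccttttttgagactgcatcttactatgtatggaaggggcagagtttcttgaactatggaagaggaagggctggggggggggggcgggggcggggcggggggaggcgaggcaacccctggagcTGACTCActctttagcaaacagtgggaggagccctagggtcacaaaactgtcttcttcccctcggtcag
Areg: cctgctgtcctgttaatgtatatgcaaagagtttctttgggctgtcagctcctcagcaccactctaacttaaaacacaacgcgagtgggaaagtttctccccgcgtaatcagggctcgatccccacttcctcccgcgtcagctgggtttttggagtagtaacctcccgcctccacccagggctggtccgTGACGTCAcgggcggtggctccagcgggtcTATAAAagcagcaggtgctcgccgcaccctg
The AP-1 motif began 63 bases before the start in Mmp10, 94 in Serpinb2 and 69 in Plaur, and the cyclic AMP response element of Areg began 61 bases before its start.

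A promoter window of 300 bases, 250 before and 50 after the start, was present for 9760 of 12171 tested protein-coding genes (80.2%) and for 65 of the 76 that rose more than 8-fold (85.5%). On both strands, TGANTCA occurred in 12 of those 65 (18.5%) and in 443 of all 9760 (4.54%). TATAAA occurred in 17 of 65 (26.2%) and in 647 of 9760 (6.63%), whereas TGACGTCA occurred in 1 of 65 (1.54%) and 332 of 9760 (3.4%), and its first letters TGACG in 29.2% and 32.4%. These are counts of letters in short windows and not of bound sites, and they were not tested. The windows were not matched for level in mock, which was lower in protein-coding genes called higher (median 2.4 CPM) than in all tested (29.6 CPM). Other motifs were searched too. AAAGGTCA, bound by NR4A receptors, occurred in 0 of 65 and 0.799% of all windows, and GCGTGGGCG, bound by EGR factors, in 0 of 65 and 1.24%. CATTCC, the MCAT element of TEAD factors, occurred in 16.9% and 11.4%. CATGTG, an E-box bound by MITF, occurred in 12.3% and 7.89%, and the CArG box of SRF in 1.54% and 1.33%. Over all genes called higher and all called lower the shares were taken as void, since 79.1% and 71.8% of them had a window and at least 80% was required.

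Several matrix and adhesion genes rose. For matricellular proteins, 6 of 12 tested members rose and 0 fell (median log2 fold change 0.83, with 31 listed), among them Spp1, osteopontin, at 43.5, 36.7 and 37.9 CPM in mock and 144, 136 and 141 CPM with GRP (log2 fold change 1.83, SE 0.05, adjusted p = 2.60e-15). Sparc stood at 4864 ± 196 CPM in mock and 5229 ± 81 CPM with GRP (log2 fold change 0.10). For collagens, 5 of 23 tested members rose and 1 fell (median log2 fold change 0.07, with 44 listed), with Col16a1 from 6.44 ± 0.0684 to 21.1 ± 1.37 CPM (1.71) and Col18a1 from 0.404 ± 0.111 to 1.85 ± 0.243 CPM (2.18). Among integrins, 4 of 18 tested members rose and 1 fell (median log2 fold change 0.20, with 28 listed). Itga3, the alpha 3 subunit of laminin receptors, was read at 3.41, 2.72 and 2.48 CPM in mock and 25.3, 25 and 28.1 CPM with GRP (log2 fold change 3.18, SE 0.10, adjusted p = 1.18e-14). Itgb8, a subunit of an integrin that activates TGF-beta, rose from 0.973 ± 0.119 to 4.16 ± 0.152 CPM (2.09), and Itga2, a collagen receptor subunit, fell from 7.19 ± 0.543 to 3.18 ± 0.787 CPM (-1.19). Lamb3, a chain of an epithelial laminin, rose from 0.129 ± 0.0319 to 0.393 ± 0.0570 CPM (1.60). The shared beta 1 integrin Itgb1 stood at 999.5 ± 26.2 CPM in mock and 1298 ± 8.66 CPM with GRP (0.38, adjusted p = 2.57e-09).

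In the list of SRF targets and actin genes, 4 of 28 tested members rose and 0 fell (median log2 fold change 0.49, with 37 listed), and 21 of 28 were higher at the adjusted p alone. Tpm1, a tropomyosin, was read at 158, 165 and 159.5 CPM in mock and 441, 474 and 486 CPM with GRP (log2 fold change 1.54), Tagln2, a transgelin, at 90.9, 83.8 and 77 CPM in mock and 264, 285 and 272 CPM with GRP (1.71), and Vcl, vinculin of focal adhesions, at 219, 205 and 204 CPM in mock and 479, 493 and 493 CPM with GRP (1.22). None of these overlapped between groups. Fhl2, a LIM-domain cofactor, was at least 6.79-fold higher, and Actb stood at 1532 ± 35.1 CPM in mock and 1788 ± 16.7 CPM with GRP (0.22). Rhov, an atypical small GTPase, rose from 0.155 ± 0.110 to 1.84 ± 0.134 CPM (3.53), whereas Cdc42 stood at 476 ± 17.8 CPM in mock and 497 ± 8.42 CPM with GRP (0.06). Among cadherins and junction proteins, 3 of 21 tested members rose and 2 fell (median log2 fold change -0.08, with 57 listed): Cdh9 rose from 0.202 ± 0.0408 to 1.0 ± 0.167 CPM (2.28), and Gjb2, connexin 26, fell from 11.7 ± 0.459 to 3.05 ± 0.267 CPM (-1.94).

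Chaperones of the endoplasmic reticulum rose together. In the list of heat shock and unfolded protein genes, 10 of 29 tested members rose and 0 fell (median log2 fold change 0.65), and 22 of 29 were higher and 0 lower at the adjusted p alone. Beside Hspa5, Creld2, a folding factor of the reticulum (ENSMUSG00000023272, chromosome 15, 88819646 to 88826683), was read at 37.7, 34.2 and 34.7 CPM in mock and 141, 149 and 153 CPM with GRP (log2 fold change 2.06, SE 0.05, adjusted p = 2.27e-16), and Manf, a secreted protein induced by reticulum stress, at 74.2, 78.4 and 74.7 CPM in mock and 236, 253 and 272 CPM with GRP (log2 fold change 1.74). Sdf2l1 rose from 28.7 ± 1.63 to 90 ± 7.83 CPM (1.65) and Hsp90b1, the reticulum paralogue of HSP90 known as GRP94, from 512 ± 21.3 to 1224 ± 23.1 CPM (1.26). The cytosolic Hsp90ab1 stood at 3661 ± 76.6 CPM in mock and 3543 ± 73.1 CPM with GRP (-0.05, adjusted p = 0.236), and Atf6, which senses reticulum stress, at 226 ± 10.4 CPM in mock and 397 ± 5.81 CPM with GRP (0.81, adjusted p = 2.53e-13), short of a call.

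The promoters of 2 of the reticulum genes are shown for the reticulum stress element, CCAAT and CCACG with 9 bases between them, in capitals on either strand. They span bases before the RefSeq start on the gene's strand, 185 for Hsp90b1, where the last 65 before that start lie inside the GENCODE gene and are not shown, and 250 for Creld2: chr10:86705510-86705694, minus strand for Hsp90b1 and chr15:88819396-88819645, plus strand for Creld2.
Hsp90b1: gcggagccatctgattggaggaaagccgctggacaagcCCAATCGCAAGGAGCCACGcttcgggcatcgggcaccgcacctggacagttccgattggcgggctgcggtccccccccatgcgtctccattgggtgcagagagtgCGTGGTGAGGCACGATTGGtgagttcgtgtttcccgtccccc
Creld2: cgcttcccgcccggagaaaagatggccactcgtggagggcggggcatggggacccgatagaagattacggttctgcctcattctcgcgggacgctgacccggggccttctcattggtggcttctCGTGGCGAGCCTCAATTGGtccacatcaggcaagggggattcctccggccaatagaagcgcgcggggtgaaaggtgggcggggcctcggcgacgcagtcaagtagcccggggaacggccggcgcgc
Of the 10 called genes of the list, 8 had a 300-base window (80%), and 4 of these 8 (50%) held the element: the 2 shown, Hsp90b1 with 2 copies, Hspa5 and Pdia6. It occurred in 16 of all 9760 windows (0.164%). The list was chosen as genes of the unfolded protein response, so the element could be expected in it whatever GRP did. Members of the list that were not called were not counted separately. The share therefore does not tell which genes answered GRP. Pdia6, a protein disulfide isomerase, is named here for its promoter after the values were seen.

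For targets of ATF4, the factor of the amino acid response, and tRNA synthetases, 6 of 30 tested members rose and 0 fell (median log2 fold change 0.69, with 31 listed). Of these 30 genes 25 were higher and 5 lower at the adjusted p alone. Chac1, which degrades glutathione, rose from 0.891 ± 0.246 to 6.19 ± 0.430 CPM (log2 fold change 2.79), Mthfd2, a mitochondrial folate enzyme, from 31 ± 0.737 to 91.7 ± 0.503 CPM (1.56), and Trib3, a pseudokinase, from 2.89 ± 0.335 to 7.86 ± 0.322 CPM (1.44). The transporter Slc7a5 stood at 1348 ± 54.1 CPM in mock and 1264 ± 31.3 CPM with GRP (-0.09). Other metabolic genes called were Dgat1, which makes triglycerides, from 24.4 ± 1.53 to 92.7 ± 3.97 CPM (1.93), Slc2a3, the glucose transporter GLUT3, from 5.51 ± 0.924 to 16 ± 1.56 CPM (1.54), Eno2, an enolase, from 3.68 ± 0.529 to 14.6 ± 0.908 CPM (1.98), and Slc25a25, a calcium-regulated mitochondrial carrier, from 21.3 ± 0.734 to 92.9 ± 2.26 CPM (2.12).

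Growth and division genes mostly shifted by less than 2-fold. For DNA replication genes, 0 of 46 tested members rose and 0 fell (median log2 fold change -0.35), but 39 of 46 were lower and 1 higher at the adjusted p alone, against 26.9% and 25.7% of all tested genes. For mitosis genes, 1 of 53 tested members rose and 0 fell (median log2 fold change -0.28), with 36 of 53 lower and 2 higher at the adjusted p alone. Top2a stood at 239 ± 15.8 CPM in mock and 177 ± 2.11 CPM with GRP (log2 fold change -0.43, SE 0.04, adjusted p = 1.09e-07), and the gene called was Cenpa, the centromeric histone H3 variant, at 46.3 ± 3.90 CPM in mock and 96.7 ± 1.61 CPM with GRP (1.06). In the list of ribosome biogenesis genes, 0 of 55 tested members rose and 0 fell (median log2 fold change 0.25, with 56 listed), while 44 of 55 were higher and 2 lower at the adjusted p alone. Among cholesterol synthesis genes, 0 of 28 tested members rose and 0 fell (median log2 fold change 0.34), with 19 higher and 3 lower at the adjusted p alone. For ribosomal proteins, 0 of 79 tested members rose and 0 fell (median log2 fold change 0.07, with 82 listed), and for the respiratory chain, 0 of 76 tested members rose and 0 fell (median log2 fold change 0.06, with 81 listed).

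**Figure D4:**
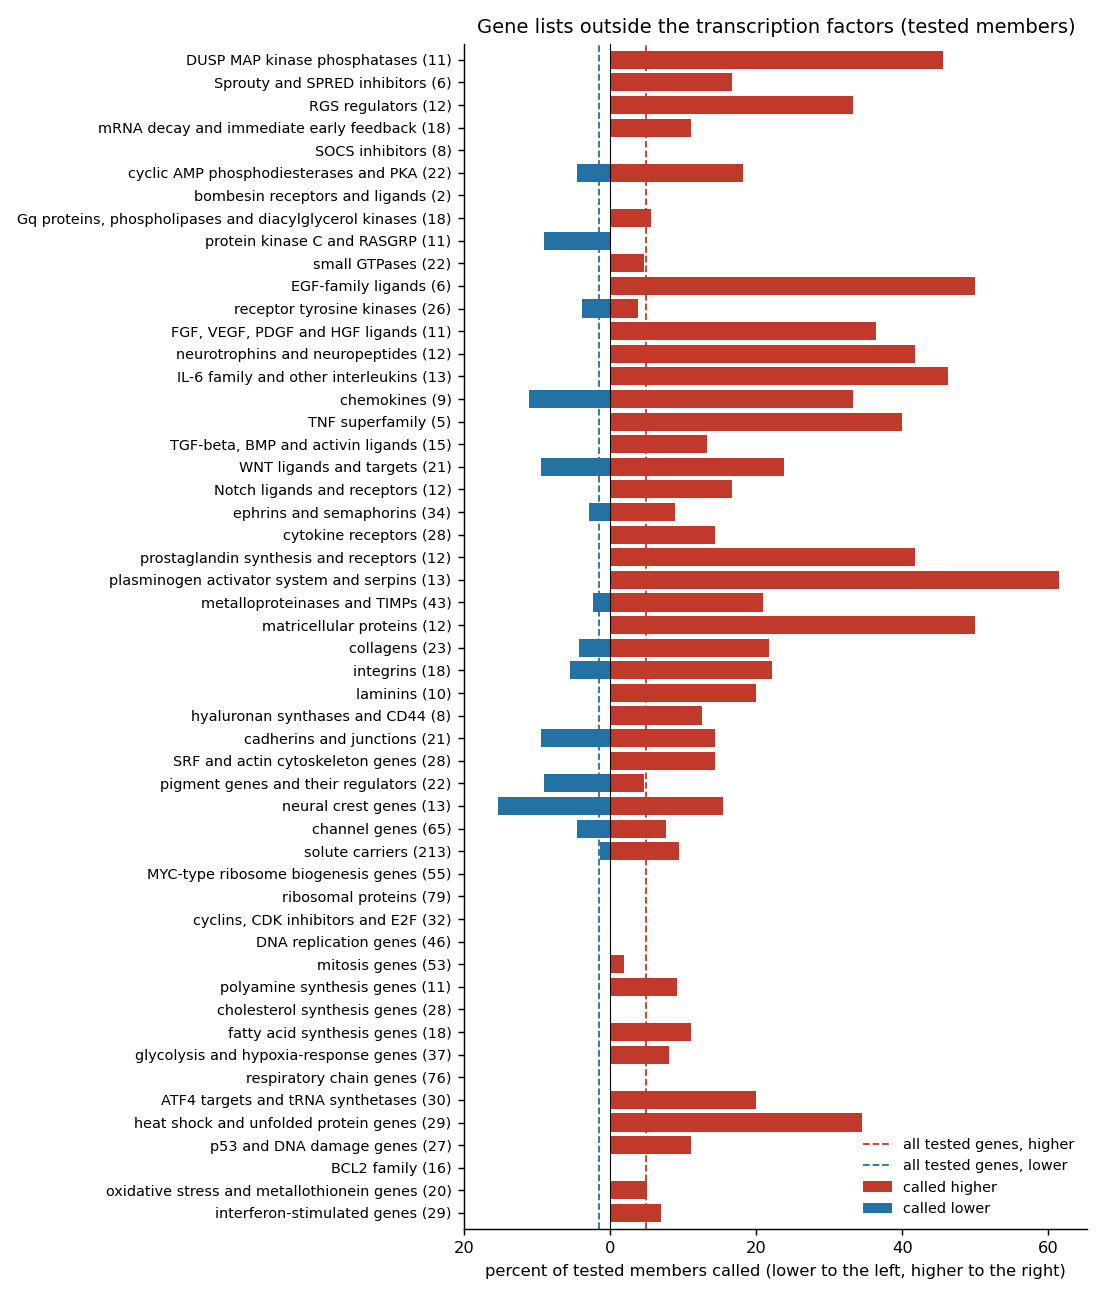
Each row is one of the 52 gene lists other than transcription factor families, with the number of tested members; bars to the right give the percentage called higher with GRP in line 1057 and bars to the left the percentage called lower. Dashed lines mark the shares of all tested genes, 4.96% and 1.5%. The list of plasminogen activators and serpins has 8 of 13 members called higher, and the lists of ribosomal proteins and the respiratory chain have none called.

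The genes with the largest falls were next examined. Kcnj10, an inwardly rectifying potassium channel (ENSMUSG00000044708, chromosome 1, 172341210 to 172374085), stood at 13.5, 14.2 and 13.2 CPM in mock and 2.66, 2.95 and 3.12 CPM with GRP (log2 fold change -2.22, SE 0.09, adjusted p = 6.28e-13). Kcnn2, a calcium-activated potassium channel, stood at 33.5, 34 and 33.8 CPM in mock and 11.1, 11.3 and 12.1 CPM with GRP (log2 fold change -1.55), and Lrrtm2, a synaptic adhesion protein, at 1.86, 1.69 and 1.93 CPM in mock and 0.282, 0.376 and 0.204 CPM with GRP (-2.64). The groups lay apart in all 3. Hvcn1, a voltage-gated proton channel, fell from 5.54 ± 0.0521 to 1.37 ± 0.299 CPM (-2.0), Abcd2, a peroxisomal transporter, from 2.44 ± 0.486 to 0.575 ± 0.118 CPM (-2.07), Cobl, an actin nucleator, from 46.3 ± 1.62 to 11.4 ± 0.699 CPM (-2.02), and Dhrs3, which reduces retinaldehyde, from 51 ± 0.751 to 15 ± 0.647 CPM (-1.76).

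The falls in CPM among called genes were also ranked. Slc43a2, a transporter of neutral amino acids, was among the 10 largest and stood at 178, 201 and 183 CPM in mock and 70.5, 69 and 71.6 CPM with GRP (log2 fold change -1.41, SE 0.04, adjusted p = 2.03e-15), as were Erbb3 and Ednrb, given above. The largest fall was that of Adgre5, the adhesion receptor CD97, from 493 ± 18.1 to 239 ± 2.74 CPM (log2 fold change -1.04). Akap12, a scaffold of protein kinases A and C, fell from 433 ± 15.6 to 215 ± 5.78 CPM (-1.01), a call lost with DESeq2, with RLE normalization and without mock replicate 3, GRP replicate 2 or GRP replicate 3. Cers4, a ceramide synthase, fell from 342 ± 2.64 to 158 ± 4.92 CPM (-1.11), Crot, a peroxisomal carnitine transferase, from 319 ± 9.62 to 142 ± 6.45 CPM (-1.16), and Cd200, an inhibitory ligand of myeloid cells, from 201 ± 1.06 to 90.7 ± 3.77 CPM (-1.15).

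Among pigment genes, 1 of 22 tested members rose and 2 fell (median log2 fold change -0.08, with 23 listed). These are 4.55% and 9.09% of the list, against 4.96% and 1.5% of all tested genes, and 6 of 22 were higher and 10 lower at the adjusted p alone. Tyrp1, a melanosomal enzyme, was read at 83.6, 75.8 and 78.9 CPM in mock and 159, 159 and 172 CPM with GRP (log2 fold change 1.04, SE 0.04, adjusted p = 1.63e-13). Rab27a, which links melanosomes to actin, fell from 35 ± 0.702 to 14.8 ± 0.569 CPM (log2 fold change -1.24). Mitf, the master regulator of the lineage and one of the 7 markers, stood at 386, 375 and 368 CPM in mock and 692, 753 and 730.1 CPM with GRP, a rise by 0.94 on the log2 scale that passed the adjusted p (1.70e-13) but not the 2-fold limit. Gpnmb stood at 2887 ± 110.4 CPM in mock and 3670.4 ± 94.9 CPM with GRP (0.35).

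Other lines of the study received the same GRP and mock treatments. Line 1064 also has its own Grpr, with 22658 to 24040 reads in mock and 9830 to 13030 with GRP. In line 1057 there were 8901 to 8926 and 5977 to 6669. These reads are not scaled for library size. Scaled over all 72 libraries, mock held 780 to 1273 CPM in 1064 and 273 to 276 CPM in 1057. Line 1014-Grpr carries a Grpr plasmid and had 3189 to 3722 reads in mock and 10019 to 27942 with GRP, and 1181-Ctrl, with a control plasmid, had 0 to 2 reads in every library. The paper lists 1181 as a male and 1014 as a female line, both with E-cadherin. In mock, Cdh1 had 366 to 778 reads in 1181-Ctrl and 28 to 87 in 1014-Grpr, against 0 or 1 in 1057 and 1064. Line 1064 had 210 genes higher (1.52% of 13794) and 110 lower (0.797%) by the same rule, and line 1014-Grpr had 434 higher (3.16% of 13730) and 117 lower (0.852%). In 1181-Ctrl edgeR called 0 genes, with 37 of 14188 at an unadjusted p under 0.05, and 0 and 513 with the replicate number as a block. Both fits passed fewer genes than a p under 0.05 gives with no effect at all, above all the fit without the block. The 0 calls therefore do not show an absence of response. In these 3 lines the numbers pair the libraries, and with that block 480 genes passed upward and 420 downward in 1064, and 474 and 164 in 1014-Grpr.

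Genes called in line 1057 mostly had the same direction in 1064 and 1014-Grpr. Of the 704 higher, 548 were tested in 1064, 95.1% of them were higher with GRP, against 47% of all genes tested in that line, and 127 were called higher, which is 18% of the calls of 1057 and 60.5% of those of 1064. In 1014-Grpr 87.7% of 486 were higher, against 47.8% of all its genes, and 163 were called higher, 23.2% of the calls of 1057 and 37.6% of those of 1014-Grpr. In 1181-Ctrl 49.6% of 476 were higher, against 47.6% of all its genes. The median log2 fold change of the genes called higher was 0.95 in 1064, 0.72 in 1014-Grpr and -0.001 in 1181-Ctrl. For the 213 lower, the same sign was found in 95.1% of 163 genes in 1064, against 53% of all genes tested in that line. In 1014-Grpr it was found in 85.2% of 142, against 52.2%, and in 1181-Ctrl in 41% of 161, against 52.4%. Lines 1057, 1064 and 1014-Grpr all had the same 65 genes called higher and 8 lower, the latter 2810410L24Rik, 2900052L18Rik, Bahcc1, Gm10642, Mecom, Mob3b, Rgma and Zfp791, named by that count. With the block, 255 and 80 of the genes of 1057 were called the same way in 1064 and 170 and 20 in 1014-Grpr.

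The last pair of lines held libraries that go against their labels. In 1014-Ctrl, a female line with a control plasmid, mock replicate 2 had 64.3 CPM (scaled here over all 72 libraries) of the Y-linked gene Ddx3y, 48.1 CPM of Grpr and 5586 CPM of Dct, while the other 11 libraries had 0, at most 0.0334 and 20794 to 22736 CPM. In 1181-Grpr, a male line with a Grpr plasmid, GRP with RC replicate 2 had 0 CPM of Ddx3y, 0 CPM of Grpr and 21786 CPM of Dct, while the other 11 had 36.9 to 63, 8.46 to 80.7 and 5270 to 5745 CPM. Each of these 2 libraries had levels close to those of the other line. The other 11 libraries of 1181-Grpr also held Xist, the X-inactivation transcript, at 192 to 251 CPM. In 1181-Ctrl, labelled as the same male line, Xist was at most 0.639 CPM and Dct 161 to 337 CPM. The part of cells of another line in the libraries of 1181-Grpr was not tested. In the libraries labelled 1181-Grpr, 70.6% of 513 genes called higher in 1057 were higher with GRP, against 48.2% of all genes of that line. Their median log2 fold change was 0.08, and 70.5% of 532 were higher without the library that stands apart. In 1014-Ctrl 58.6% of 469 were higher, against 50.4% of all its genes, with a median of 0.07. Without mock replicate 2 the share was 53.6% of 478, against 50.6%, with a median of 0.009. By edgeR 0 genes were called in either line with all libraries, with 45 in 1181-Grpr and 562 in 1014-Ctrl at an unadjusted p under 0.05, and 0 without those libraries, with 110 and 200 in that order. With the replicate number as a block and all libraries, 0 genes were called, with 157 in 1181-Grpr and 543 in 1014-Ctrl. These counts are also below what a p under 0.05 gives with no effect, so the 0 calls do not show an absence of response.

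For single genes of line 1057, values of the other lines stand beside them. Nr4a1 changed by 2.89 in 1057, 2.66 in 1064, 1.49 in 1014-Grpr and 0.01 in 1181-Ctrl on the log2 scale. Odc1 changed by 2.31, 0.94, 0.85 and 0.02 in that order of lines. The chaperone gene Hspa5 changed by 1.72, 1.48, 0.93 and -0.02, and Plat by 2.31, 0.09, 0.91 and -0.000. Erbb3 changed by -1.67, -1.77, -0.50 and -0.001.

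**Figure D5:**
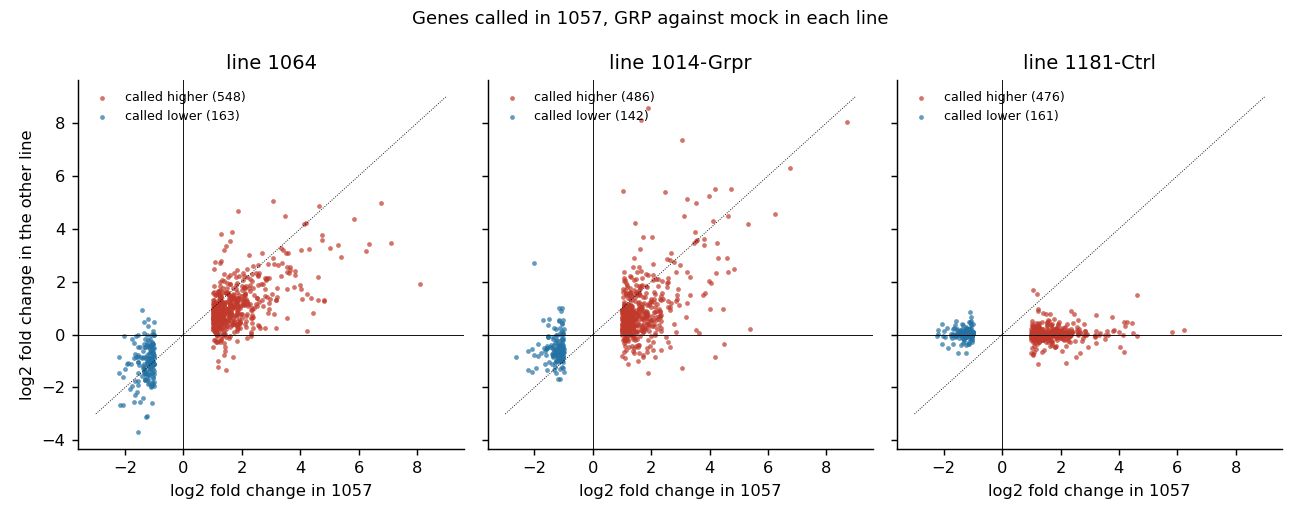
Each point is one gene called in line 1057, with its log2 fold change of GRP over mock in 1057 on the horizontal axis and in line 1064, 1014-Grpr or 1181-Ctrl on the vertical axis, red for genes called higher and blue for lower; the dotted line marks equal effects. Genes called higher in 1057 have a median of 0.95 in 1064, 0.72 in 1014-Grpr and -0.001 in 1181-Ctrl.

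The difference of the GRP effect between lines was tested directly. It was called for 18 of 14647 genes (0.123%) between 1057 and 1064, 12 larger and 6 smaller in 1057, and with the replicate number of each line as a block for 146 and 73. The fit without the block ignores the pairing of libraries in 1064, so the 18 genes do not show that both lines answered alike. Leaving out any 1 of the 6 libraries of 1057 left 5 genes, and leaving out 1 library of 1064 gave 28 without GRP replicate 2, 34 without mock replicate 1 and 37 without mock replicate 3. Against 1014-Grpr it was called for 413 of 15108 genes (2.73%), 209 larger and 204 smaller, with 260 and 236 under the block. Against 1181-Ctrl it was called for 380 of 15034 genes (2.53%), 298 larger and 82 smaller, with 529 and 189 under the block. Differences named in well-read genes included that of Serpine2, whose effect was larger by 1.68 in 1057 than in 1064 (log2), and Kcnj10, with a difference of -2.16 from 1181-Ctrl. Rgs16 had a difference of -6.47 from 1014-Grpr but few reads, with a mean of 6 in mock of 1014-Grpr and 14 in mock of 1057.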

How the data were processed

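RNA of mouse melanoma lines was sequenced with a stranded kit, and the authors deposited raw counts per gene, made with STAR on GRCm38 after FastQC 0.11.5; the strand setting of the counting and read filters are not given in the sources used here. The deposited TPM table was not used. Samples were grouped by line and treatment as labelled, with 3 libraries a group; 1 library each of 1181-Grpr and 1014-Ctrl went against its line label, and neither line entered a test against 1057.

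The 12 libraries of line 1057 (mock, GRP, RC and GRP with RC; 30085078 to 38579416 reads) were fitted together with edgeR 4.0.16 in R 4.3.3 (filterByExpr, TMM, glmQLFit, glmQLFTest) and GRP was contrasted with mock. A call needed both p under 0.05 after Benjamini-Hochberg adjustment and a change of more than 1 on the log2 scale in either direction. CPM values use the TMM library sizes and are compared within a gene. SE was taken from F as the size of the log2 fold change over the root of F. The same fit was run in each other line, and differences of effect were tested as an interaction over the 12 mock and GRP libraries of each pair of lines. The step was tested on simulated data for GRP against mock in 1057: of 200 changed among 14195 genes 100% were recovered with 1 false call. The changed genes all had more than 1 CPM in mock and changes set beyond the 2-fold limit. Recovery of genes at lower levels or with changes close to that limit was not tested. Libraries of a group differed from each other by more than sampling noise (chi-square per degree of freedom 2.697 to 9.845).

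Members and gene lists were chosen with earlier results of these data known. Named genes are Grpr and Cdh1, the 20 highest and 15 lowest log2 fold changes among called protein-coding genes with a mean of at least 1 CPM in the higher group, the 10 largest rises and 10 largest falls in CPM, up to 4 called members of each list and its most abundant member not called, and the 5 largest differences of effect in each direction; a few of them are not reported here. The 74 lists are described by counts and medians, without a set test. Gene positions are those of GENCODE M21 on GRCm38, which held 99.6% of the gene identifiers, and promoter windows those of RefSeq on GRCm38.p6, matched by symbol or synonym.

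Same-numbered mock and GRP libraries of 1057 were not paired, since their deviations from the group means correlated by 0.008, 0.045 and 0.048. The correlations were 0.583 to 0.721 in 1064, 0.434 to 0.513 in 1014-Grpr and 0.75 to 0.852 in 1181-Ctrl, so that the numbers pair the libraries there, and both counts are given. Alternatives were DESeq2 1.42.0, RLE normalization, no filter on low counts, glmTreat against a fold change of 2, no fold limit, the 6 mock and GRP libraries alone, a replicate block, and leaving out each library; the leave-outs in the tests of differences between lines, the block in single other lines, and the fits without a library that goes against its line label were chosen after seeing the data.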

Additional observations from a re-analysis of the deposited data

Results flagged for a closer look

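The GRP effect differed between line 1057 and another line for a number of genes by the interaction test of edgeR (adjusted p under 0.05 and a difference of effects above 2-fold). Between 1057 and 1064 it was called for 18 genes, and for 219 with the replicate number of each line as a block. The effect was larger in 1057 (log2) by 2.68 for Samd11, 2.44 for Lonrf2, 1.68 for Lrrc8c, 1.68 for Serpine2 and 1.42 for Dgat1. The difference was -2.88 for Adora2a, an adenosine receptor, -1.89 for Bok, a BCL2 family member, -1.41 for Asxl3, -1.30 for Fam129a and -1.20 for Adgre5. Serpine2 rose by 2.33 in 1057 and 0.63 in 1064, and Dgat1 by 1.93 and 0.49. Adora2a stood at a log2 fold change of -0.82 in 1057 and 2.06 in 1064. All 10 were also past the adjusted p with the replicate block (0.000231 to 0.00825).

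Between 1057 and 1014-Grpr the difference was called for 413 genes, with 6.63 for Fam20a, 5.66 for 1700016P03Rik, 5.18 for AI839979, 5.02 for Gm42608 and 4.85 for Ttyh1. It was -6.87 for Ptchd1, -6.47 for Rgs16, -5.01 for Mapk10, -4.95 for Serpinb11 and -4.78 for Cxcl5. In 9 of these 10 genes, all but Rgs16, the mean was at most 3 reads in at least 1 of the 4 groups compared, so that the fitted size rests on the prior count and is neither a measured fold nor a bound. Among them Fam20a, 1700016P03Rik, AI839979, Gm42608 and Ttyh1 had at most 1.33 reads on average in mock of 1057, and Ptchd1, Mapk10, Serpinb11 and Cxcl5 had 0 in mock of 1014-Grpr. With the replicate block their adjusted p ran from 3.43e-09 to 0.0516, and the highest, that of Mapk10, was above the threshold.

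Between 1057 and 1181-Ctrl the difference was called for 380 genes, with 7.47 for Inhba, 7.13 for Ramp3, 6.97 for 1700016P03Rik, 6.80 for Acvr1c and 6.49 for Cytip. It was -4.82 for Hoxb8, -2.55 for Gm31822, -2.38 for Rab11fip4, -2.21 for Mecom and -2.16 for Kcnj10. In 7 of these 10 genes, all but Rab11fip4, Mecom and Kcnj10, the mean was at most 3 reads in at least 1 of the 4 groups, 5 of them in both groups of 1181-Ctrl, and the fitted size again rests on the prior count. Inhba had 0 reads in mock of 1057. Mecom and Kcnj10 were well read there and had log2 fold changes of 0.02 and -0.05, against -2.21 and -2.22 in 1057. Their adjusted p with the replicate block was at most 0.0211 for all 10. The part of line, E-cadherin, sex, plasmid and receptor level in these differences was not tested.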

How the results depend on the processing

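Of the 204 named genes called, 0 reversed in direction under any alternative run. They had been called from these same libraries, so this was close to fixed in advance and says little about stability. Under an alternative other than the test against a fold change of 2, 15 lost the call (Acacb, Akap12, Atf5, Bhlhe40, Dgkh, Dlk2, Gadd45g, Hoxb4, Irf5, Itga7, Klf12, Pde1c, Pfkp, Rgs4 and Tead3), and 48 lost it under that test. The number called higher was 422 under that test and 3643 at the adjusted p alone, against 704; the number called lower was 55 and 3819, against 213. With DESeq2 it was 681 and 190, with RLE normalization 712 and 204, without a filter 849 and 256, with only the 6 libraries 673 and 193. Of the 704 and 213 genes, 674 and 190 were also called by DESeq2. Leaving out single libraries gave 695 to 723 higher and 212 to 234 lower. The replicate block gave 702 and 213 in 1057, where the numbers do not pair the libraries. The difference from 1064 rested on few genes and was the least stable count: 219 with the replicate block, 92 with DESeq2, 5 to 37 with a library left out, against 18. The difference from 1014-Grpr gave 496, 435 and 363 to 477, and that from 1181-Ctrl 718, 452 and 305 to 448. The cause of these shifts was not tested. Signs reversed only in genes near 0 that were not called: with single libraries left out, log2 fold changes ran from -0.023 to 0.005 for Nab1, -0.037 to 0.022 for Sox10, -0.014 to 0.176 for Nfat5, -0.003 to 0.194 for Tbx2, -0.019 to 0.041 for Ccl25 and -0.398 to 0.076 for Mapk10, and Sox10 stood at 0.002 with DESeq2 and with RLE normalization. Genes with at most 3 reads in every mock library have no measurable fold, only a bound, and 1 line at 1 dose and 1 time was measured.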

Other observations

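Among solute carriers, 20 of 213 tested members rose and 3 fell (median log2 fold change 0.01, with 367 listed). These are 9.39% and 1.41%, against 4.96% and 1.5% of all tested genes. Slc41a2, a magnesium transporter, rose from 10 ± 1.09 to 35.1 ± 0.814 CPM (log2 fold change 1.80), and Slc16a11, a monocarboxylate transporter, was at least 11.4-fold higher. Among channel genes, 5 of 65 tested members rose and 3 fell (median log2 fold change -0.05, with 187 listed). The shares were 7.69% and 4.62%, against 4.96% and 1.5% of all tested genes. Kcnmb4, a subunit of calcium-activated potassium channels, rose from 1.62 ± 0.359 to 4.70 ± 0.272 CPM (1.54), and Kcnn4 stood at 318 ± 9.73 CPM in mock and 248 ± 0.119 CPM with GRP (-0.35).

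For p53 and DNA damage genes, 3 of 27 tested members rose and 0 fell (median log2 fold change -0.23, with 28 listed), namely Plk3, a polo-like kinase, from 30 ± 0.533 to 71.7 ± 0.908 CPM (1.26), Gadd45g by 1.23 (not called without mock replicate 1) and Gadd45b by 1.11. In the BCL2 family, 0 of 16 tested members rose and 0 fell (median log2 fold change -0.09, with 20 listed), and the survival factor Mcl1 stood at 255 ± 10.2 CPM in mock and 477 ± 11.2 CPM with GRP (0.90, adjusted p = 1.47e-13). Among interferon-stimulated genes, 2 of 29 tested members rose and 0 fell (median log2 fold change 0.03, with 44 listed). The share called higher was 6.9%, against 4.96% of all tested genes. Trim25, a ubiquitin ligase, rose from 110.1 ± 3.93 to 301 ± 3.32 CPM (1.45). Of the oxidative stress genes, Srxn1, sulfiredoxin, rose from 110.4 ± 1.17 to 243 ± 34.1 CPM (1.14). For mRNA decay factors and feedback genes, 2 of 18 tested members rose and 0 fell (median log2 fold change 0.52), with Zc3h12a, the RNase regnase 1, from 1.54 ± 0.191 to 3.69 ± 0.515 CPM (1.25) and Zfp36l1, which destabilises AU-rich transcripts, at 414 ± 11 CPM in mock and 230.5 ± 3.31 CPM with GRP (-0.84, adjusted p = 8.57e-14).

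Hippo and TGF-beta pathway genes were called singly. Lats2, a kinase that inhibits YAP, rose from 41 ± 0.760 to 118 ± 2.59 CPM (1.53), Tead3 fell from 1.53 ± 0.0471 to 0.764 ± 0.131 CPM (-1.0; a call lost with DESeq2, with RLE normalization and without mock replicate 1, mock replicate 2 or GRP replicate 3), and Pmepa1, an inhibitor of TGF-beta signalling, rose from 12.6 ± 0.865 to 32.6 ± 1.15 CPM (1.37). Smad5 stood at 478 ± 1.97 CPM in mock and 242 ± 9.26 CPM with GRP (-0.98, adjusted p = 6.47e-15), just inside the 2-fold limit.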
